A study of Mus musculus with 14 samples.

Results

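Cytosolic ribosomal proteins were followed in the liver of mice that had part of the organ removed, an operation called partial hepatectomy (PHx), after which the remaining liver grows back. The genes were taken by name: probe sets of the array annotated with 1 gene symbol, where that symbol was Rps or Rpl with a number, Rpsa or one of the Rplp genes, and the probe set with the highest mean intensity for each gene. Kinases of the Rps6k family and pseudogenes were left out. The rule found 48 genes, 22 of the small and 26 of the large subunit, among 12393 genes with a probe set of 1 symbol. A further 28 ribosomal protein genes, among them Rps27a, Rpl3, Rpl5, Rpl10 and Rplp1, were named only by probe sets that list several symbols and are not described.

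The groups were liver at 4, 8, 12, 36, 48 and 72 h after PHx and normal liver, with 2 one-colour arrays each and 14 in all. Each RNA extract was a pool of the livers of 4 to 6 mice. The labels give no strain, sex, age or sham operation. Nor do they state if the paired arrays of a time were made from different pools. The p-values therefore describe the spread seen between these arrays, which may be technical. Whole liver was sampled, so fewer cells of a type and less RNA per cell cannot be told apart.

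Ribosomal proteins bind ribosomal RNA in the nucleolus to form the small and large subunits, which leave the nucleus and join on messenger RNA to make protein. Their genes are transcribed at a high rate in all cells, and the messages start with a short run of pyrimidines, the terminal oligopyrimidine or TOP element. Through this element the kinase complex mTORC1 controls how many of the messages are translated, with the RNA-binding protein Larp1 as one mediator. Liver cells build ribosomes as they enter the cell cycle after hepatectomy, and ribosome output can be set at the level of transcription, translation or assembly. An array reads the amount of RNA, which is not itself the rate of transcription, and it does not read translation or assembly.

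The element carries the family's shared feature at the level of sequence, and a few windows are shown because the genes recur below. RefSeq windows around the gene start (assembly GRCm38.p6) were at hand for 42 of the 48 genes. Within 40 bases before to 50 after the start, a run of at least 8 pyrimidines on the sense strand lay in 35 of 42 genes (83.3%), against 6280 of 17491 coding genes (35.9%). The motif CTCTTTCC, on the sense strand and counted also inside such runs, was in 2 of the 42 (4.76%), against 85 coding genes (0.486%). CCGGAAG, the core bound by Ets factors, lay on either strand in 10 (23.8%), against 1282 coding genes (7.33%). Each window below holds 10 bases before and 20 from the start on, with runs of at least 5 pyrimidines in capitals. Rps27, Rps6, Rpl35 and Rpl22l1 were among the genes with the highest differences from normal liver, and Rps18 was among the flat ones. Rpl12 was too dim to be tested, and Rpl7l1 is a gene named for its likeness to Rpl7 whose window holds no run of at least 5. Windows of this length for Rpl37 and Rps25, also among the highest at 12 h, hold none either and are not printed. From 40 bases before to 50 after the start, the longest run was 11 bases in Rpl37 and 14 in Rps25, so both are among the 35 genes. In Rpl7l1 it was 7, short of the 8 required. Whether the runs go with the size of the differences was not tested.
Rps27, chr3:90213629-90213658, minus strand: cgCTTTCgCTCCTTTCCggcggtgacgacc
Rps6, chr4:86857348-86857377, minus strand: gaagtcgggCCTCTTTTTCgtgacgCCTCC
Rpl35, chr2:39005112-39005141, minus strand: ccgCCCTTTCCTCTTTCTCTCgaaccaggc
Rpl22l1, chr3:28805498-28805527, plus strand: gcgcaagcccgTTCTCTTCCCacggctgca
Rps18, chr17:33955646-33955675, minus strand: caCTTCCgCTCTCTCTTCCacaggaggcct
Rpl12, chr2:32961702-32961731, plus strand: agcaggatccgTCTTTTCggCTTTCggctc
Rpl7l1, chr17:46782637-46782666, minus strand: gctgcgcaagcgcagtagctgaagcaccgg

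Values are intensities on a linear scale as the authors deposited them, scaled so that the trimmed mean of every array was about 500.2. The median intensity of an array ran from 127.8 to 233.1, and the correlation of log2 values between the 2 arrays of a group from 0.910 to 0.970. The 7 hepatocyte markers on the array were above background on every array. Their median difference from normal liver was -0.58 at 36 h and -0.46 at 48 h, with 0 of 7 past the test. Of 8 Kupffer cell markers 2 fell at 8 h and 3 at 12 h, where their median was -1.0. Of all 13576 probe sets tested, 641 fell at 8 h and 844 at 12 h. At 36 h 1 of the 8, Marco, rose, with 920 and 686 against 170 and 133 in normal liver (2.04). Of 6 tested neutrophil markers 1, 2, 1 and 1 rose at 4, 8, 12 and 36 h, where 217, 661, 812 and 310 of the 13576 rose. The part of these shifts in the ribosomal protein values was not tested. Other tissues were seen in some pools: summed pancreatic acinar markers reached 34228 and 34622 at 4 h, 230444 and 214299 at 8 h and 38720 in replicate 2 of 36 h, against 1858 and 979 in normal liver. Summed skeletal muscle markers were 16197 and 14724 at 4 h and 9951 and 9255 at 8 h, against 471 and 401 in normal liver. They were 2161 and 1500 at 12 h and 361 and 2449 at 36 h. In replicate 2 of the 8, 12, 36 and 72 h groups pyruvate carboxylase, a control gene, gave a 5′ to 3′ signal ratio of 0.0909 to 0.137, and in the other 10 arrays one of 0.305 to 0.584. The ratio is lower where labelled RNA is shorter, and the 4 are called low-ratio arrays here.

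Of the 48 genes, 44 reached the mean intensity of 128.8 above which probe sets were tested, and all 44 were above background on every array. No ribosomal protein gene passed the test of a change after hepatectomy (limma, Benjamini-Hochberg adjusted p under 0.05 over 13576 probe sets). The count was 0 of 44 against normal liver at each of 4, 8, 12, 36, 48 and 72 h, where 2.42, 9.59, 12.2, 4.17, 2.32 and 2.49% of all probe sets passed. The count was also 0 of 44 in the F test over the 6 times (13.1% of all probe sets) and for the late times, 36 to 72 h, against the early times, 4 to 12 h (15.9%). At an unadjusted p under 0.05, 0, 3, 6, 5, 1 and 2 of the 44 were higher at 4, 8, 12, 36, 48 and 72 h than in normal liver, and 0 were lower. By that measure 6.85, 13.4, 16.2, 10.6, 8.74 and 9.50% of all probe sets were higher, and 6.94, 12.1, 13.3, 7.70, 5.38 and 5.68% lower.

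The genes sat above normal liver by small amounts, most at 12 and 36 h. The median log2 difference of the 44 from normal liver was 0.11, 0.15, 0.28, 0.26, 0.052 and 0.14 at 4, 8, 12, 36, 48 and 72 h. At 12 h that is 21.5% above normal liver and at 36 h 19.9%. Over all probe sets tested the medians were -0.0025, 0.089, 0.12, 0.074, 0.12 and 0.11. Among 3127 other probe sets with a mean intensity of 1000 or more, where most ribosomal protein genes lie, they were -0.053, -0.13, -0.11, 0.0041, -0.089 and -0.056. Of the 44 genes, 41 had a difference above 0 at 12 h (57.7% of all probe sets) and 39 at 36 h (57.2%), but 25 at 48 h (60.6%). Late against early times, the median was -0.011 and 22 of 44 lay above 0, with 0.022 and 52.7% for all probe sets. With quantile normalization 40 of 44 lay above 0 at 48 h (49.9% of all probe sets) and 34 of 44 late against early (50.8%). The 6 comparisons share the normal arrays, and these medians carry no test.

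**Figure D1:**
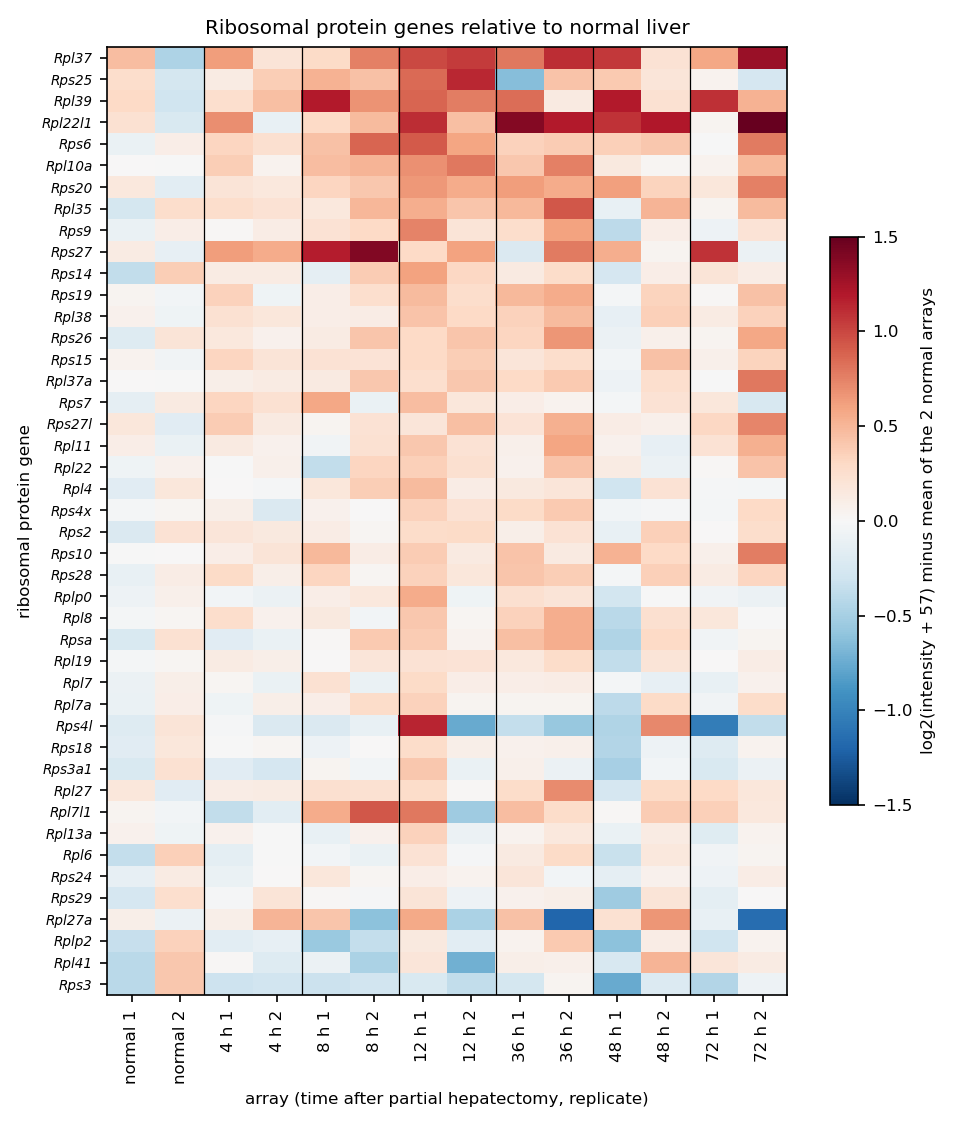
Log2(intensity + 57) of the 44 tested ribosomal protein genes (rows, ordered by their difference at 12 h) on each of the 14 arrays (columns, normal liver first, then by time), minus the gene's mean in the 2 normal arrays. Colours stop at 1.5 either way. Most rows are pale, the 12 h and 36 h columns are mostly red, and the 2 arrays of 48 h differ from each other.

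The median over the 44 genes on each array shows how far this depends on single arrays. Relative to the mean of the normal arrays it was -0.073 and 0.073 on the normal arrays themselves, 0.11 and 0.082 at 4 h, 0.13 and 0.21 at 8 h, 0.38 and 0.19 at 12 h, 0.19 and 0.32 at 36 h, -0.096 and 0.22 at 48 h, and 0.017 and 0.17 at 72 h. All arrays of 4, 8, 12 and 36 h were above both normal arrays, while 1 array of 48 h was below both and 1 of 72 h lay between them. With quantile normalization, which gives all arrays the same distribution, the array medians were 0.41 and 0.23 at 12 h, 0.36 and 0.53 at 36 h, 0.25 and 0.23 at 48 h and 0.22 and 0.29 at 72 h, against 0.018 and -0.018 in normal liver, where the 2 arrays changed places. The median over all probe sets moved from 0.12 to -0.00083 at 48 h under that scaling. Under it both arrays of 48 h and both of 72 h were above the normal arrays.

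Many genes were higher on both arrays of a time than on both normal arrays without passing the test. The arrays did not overlap, with the PHx arrays higher, for 11, 17, 26, 23, 6 and 11 of the 44 genes at 4, 8, 12, 36, 48 and 72 h. The same held for 19.4, 29.5, 29.4, 26.7, 22.9 and 27.1% of all probe sets. As shares of the 44, 59.1% at 12 h and 52.3% at 36 h stood above this background. The 25% at both 4 and 72 h and the 38.6% at 8 h were nearer to it, and the 13.6% at 48 h was below it. With quantile normalization the counts were 7, 18, 31, 36, 17 and 26, against 21.2, 26.8, 26.3, 25.7, 20.1 and 23.2% of all probe sets. The arrays did not overlap with the PHx arrays lower for 1 gene each at 4, 8 and 36 h, 2 at 72 h and 0 at 12 and 48 h. Of all probe sets 23.8, 25.6, 22.9, 20.2, 16.3 and 17.5% did so at the 6 times. With quantile normalization 6, 1, 0, 1, 0 and 3 genes were lower in this way, so that at 4 h there were 7 higher and 6 lower. For late against early arrays both counts were 0, with 4.76% of all probe sets higher and 2.21% lower.

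The size of change that these arrays leave room for is given by the 95% intervals of the fit. The median interval reached 0.56 to either side on the log2 scale. At 12 and at 36 h the interval of 30 of the 44 genes lay wholly within a 2-fold change in either direction, and at 4, 8, 48 and 72 h that of 37, 33, 37 and 36. Late against early, 43 of 44 did, with a median reach of 0.32 to either side. An interval wholly above 0 was found for 6 genes at 12 h and 5 at 36 h, before any adjustment for the number of tests. Changes of the size of the medians, near 0.3, were therefore not resolved gene by gene.

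**Figure D2:**
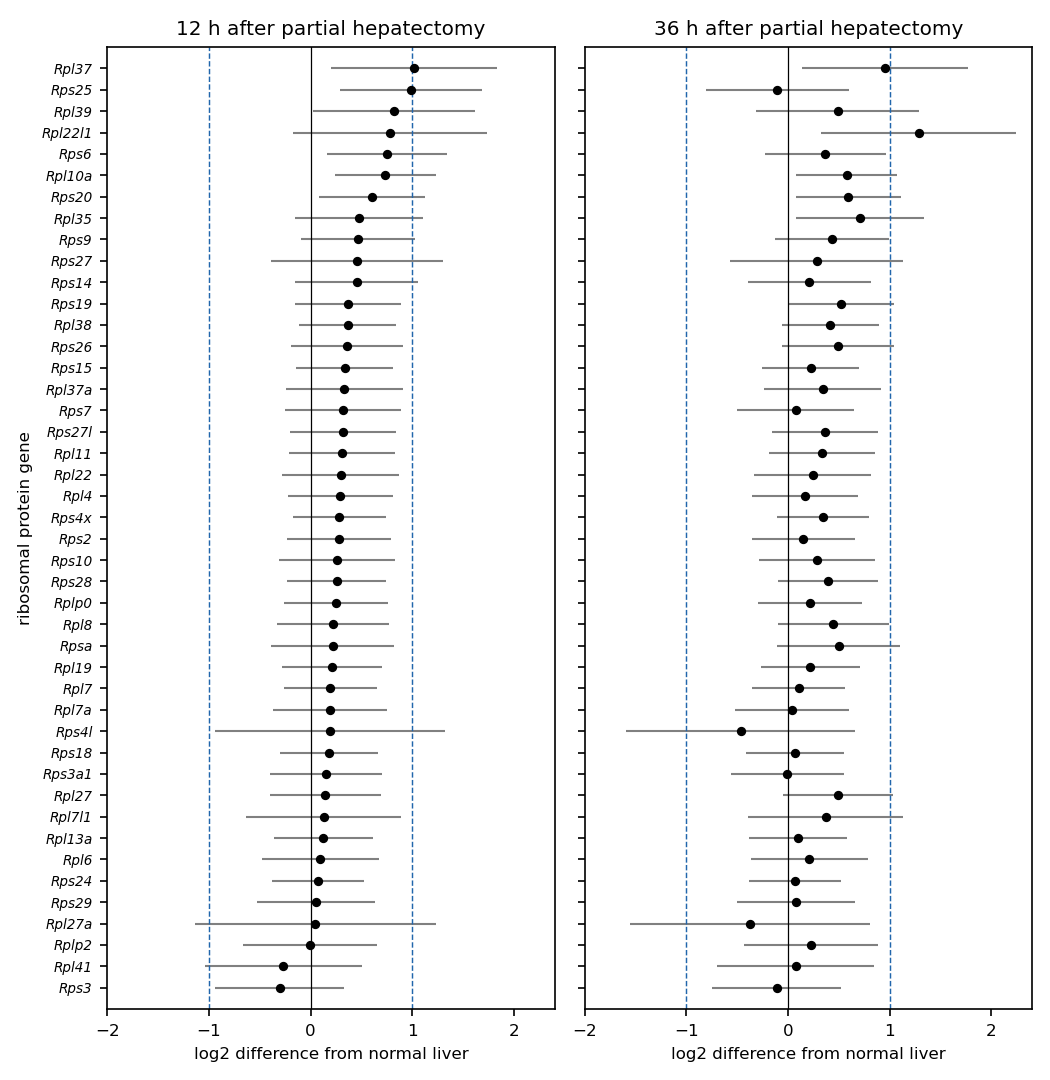
Log2 difference from normal liver of each tested ribosomal protein gene (points) with its 95% interval from the fit (bars), at 12 h (left) and 36 h (right), in the same row order. Dashed lines mark a 2-fold difference. Most points lie right of 0 at both times, and 30 of 44 intervals lie within the dashed lines in each panel.

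The medians of the subunits were close to each other. The median of the 22 tested small subunit genes was 0.13, 0.18, 0.30, 0.25, 0.092 and 0.14 at the 6 times, and that of the 22 tested large subunit genes 0.10, 0.12, 0.23, 0.29, 0.015 and 0.19. The difference between subunits was not tested. The family varied little: the median SD of a gene over the 14 arrays was 0.228 on the log2 scale, against 0.363 for all probe sets tested and 0.338 for other probe sets of 1000 or more. Within groups it was 0.235, against 0.293 for all and 0.243 for other bright ones. The spread over all arrays was larger than that within groups for 24 of the 44 genes (54.5%), and for 71.0% of all probe sets. The probe sets with the smallest SD were those of Rps24 (SD 0.107), a small subunit protein needed in human cells to process ribosomal RNA, Rpl7 (0.130) and Rpl13a (0.135), known in human monocytes for silencing inflammatory messages. Rps24 lay between 6988 and 8724 on all PHx arrays, against 7051 and 8396 in normal liver. Other probe sets of these genes lay further from normal liver, with 0 of them past the test. At 36 h the 3 others of Rps24 were at 0.56, 0.58 and 0.57, and the 2 others of Rpl7 at 0.79 and 0.72. The 3 others of Rpl13a were at 0.23, 0.27 and 0.26 at 36 h and at 0.24, 0.62 and 0.39 at 48 h.

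Among small subunit proteins, Rps27, a zinc finger protein, had the highest value at 8 h. Its intensity was 396 and 322 in normal liver, 585 and 550 at 4 h, 877 and 1030 at 8 h, 455 and 575 at 12 h, 300 and 655 at 36 h, 548 and 369 at 48 h, and 821 and 333 at 72 h. Both arrays of 4, 8 and 12 h were above both normal arrays, and from 36 h on the 2 arrays of a time disagreed. The difference at 8 h was 1.28 (SE 0.39, adjusted p = 0.0586), the lowest adjusted p of the family at that time. It did not pass, but did with a pseudocount of 228 (adjusted p = 0.0361) and in 3 other alternative fits to all arrays.

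Rps6, the small subunit protein that the S6 kinases phosphorylate downstream of mTORC1, is needed in mouse liver for hepatocytes to divide after hepatectomy. Its intensity was 246 and 291 in normal liver, 348 and 326 at 4 h, 384 and 539 at 8 h, 555 and 431 at 12 h, 356 and 367 at 36 h, 359 and 374 at 48 h, and 266 and 502 at 72 h. All PHx arrays but 1 of 72 h were above both normal arrays. The differences were 0.66 at 8 h (SE 0.27, adjusted p = 0.152) and 0.75 at 12 h (SE 0.27, adjusted p = 0.0922).

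Rps25, a small subunit protein with a part in initiation at internal entry sites in yeast and human cells, was highest at 12 h. Its intensity was 280 and 354 at 12 h against 167 and 99.7 in normal liver, a difference of 0.99 (SE 0.32, adjusted p = 0.0657). The probe set was dim, with a mean of 177, though above background on all 14 arrays. Background was 103 and 138 on the 12 h arrays against 72.6 and 43.6 on the normal arrays. The part of this in the difference was not tested. On the late arrays it was 63.3 and 195 at 36 h, 189 and 156 at 48 h and 138 and 100.3 at 72 h. On the other early arrays it was 148 and 184 at 4 h and 212 and 198 at 8 h. Late minus early it was at -0.54 (SE 0.19, adjusted p = 0.0681), and the 2 sets of arrays overlapped. Rps25 also had the lowest p of the family in the F test (adjusted p = 0.191).

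Rps20 and Rps10, both in the head of the small subunit, shared with Rpl10a the property that at each of the 6 times both PHx arrays were above both normal arrays. These 3 were singled out after their values were seen. For Rps20 at 4 h the margin was narrow, with 4183.7 and 4087.5 against 4086.7 and 3252.2 in normal liver. Another probe set of Rps20 had 2867 and 2375 at 4 h against 2897 and 2963 in normal liver (-0.16), and a dimmer one was at 0.77. Rps20 had 5744 and 5408 at 12 h against 4087 and 3252 in normal liver (0.60, SE 0.24, adjusted p = 0.115), and 5664 and 5408 at 36 h (0.59, SE 0.24, adjusted p = 0.201). Rps10 was highest at 72 h, with 9418 and 15318 against 8915 and 8971 in normal liver (0.42, SE 0.26, adjusted p = 0.479). In all, 12 of the 44 genes had no time at which both arrays lay apart above normal liver, 5 had 1 such time, 9 had 2, 10 had 3, 2 had 4, 3 had 5 and 3 had 6. Of all probe sets 43.0, 16.9, 12.3, 10.6, 7.66, 5.61 and 3.81% had 0 to 6 such times, and the times share the normal arrays.

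Rps3, which has a second role in DNA repair, had a mean below that of normal liver at each time. It was the lowest of the family at 4, 12 and 48 h and among the lowest 3 at the other times, with differences from -0.48 at 48 h to -0.11 at 36 h, where quantile normalization gave 0.072. This rested largely on 1 array. The intensity of Rps3 was between 6092 and 10664 on all PHx arrays, against 7796 and 13769 on the normal arrays. Without normal replicate 2 the difference was 0.11 at 12 h and positive at the other times except 48 h, where it was -0.075. At 48 h, Rps3 had 6092 and 8979 and lay at -0.48 (SE 0.29, adjusted p = 0.481), overlapping with normal liver. Rpsa, also known as the laminin receptor, had 9573 and 10256 at 36 h against 5966 and 8230 in normal liver, and 5109 and 8616 at 48 h. Rps18, at the head of the small subunit near the decoding site, had 9945 and 12764 at 48 h against 11956 and 15182 in normal liver (-0.26).

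Among large subunit proteins, Rpl10a, part of the L1 stalk through which transfer RNA leaves the ribosome, came nearest to the threshold. Its intensity was 5718 and 5678 in normal liver, 7346 and 5896 at 4 h, 7881 and 8114 at 8 h, 9173 and 9889 at 12 h, 7543 and 9658 at 36 h, 6294 and 5830 at 48 h, and 5924 and 7996 at 72 h. Both 12 h arrays were above all others except replicate 2 of 36 h, which lay between them. The difference was 0.74 at 12 h (SE 0.23, adjusted p = 0.0557), or 1.66-fold, and 0.58 at 36 h (SE 0.23, adjusted p = 0.196). It passed at 12 h with quantile normalization (adjusted p = 0.0479) and in 4 other alternative fits to all arrays.

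Rpl37, which in human cells can bind the p53 regulator Mdm2, had 1403 and 1462 at 12 h against 958 and 475 in normal liver, a difference of 1.02 (SE 0.38, adjusted p = 0.0968). At 36 h it had 1218 and 1530 (0.95, SE 0.38, adjusted p = 0.195), and at 72 h 1043 and 1741 (0.94). The 2 normal arrays of this gene were 2-fold apart, and without normal replicate 2 the difference at 12 h was 0.55. Rpl39, a small protein in the wall of the exit tunnel, had 750 and 506 at 8 h against 380 and 230 in normal liver (0.93, SE 0.37, adjusted p = 0.135). Rpl35, which sits at the end of that tunnel, had 8279 and 11335 at 36 h against 4887 and 7114 in normal liver (0.71, SE 0.29, adjusted p = 0.211).

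Rpl11, which with Rpl5 binds Mdm2 when ribosome assembly fails, had 7012 and 6157 at 12 h against 5665 and 4967 in normal liver (0.31, SE 0.24, adjusted p = 0.412). Rplp0 and Rplp2 belong to the stalk that recruits elongation factors. Rplp0, its base, had 14188 and 9169 at 12 h against 9091 and 10139 in normal liver (0.25, SE 0.23, adjusted p = 0.501). Rplp2 was below normal liver on both arrays of 8 h, with 6610 and 7605 against 7631 and 12446 (-0.46, SE 0.30, adjusted p = 0.369). Rpl41, a very short protein at the subunit interface, had 21825 and 16745 at 8 h against 17596 and 30622 in normal liver (-0.28). For Rplp2 and Rpl41 as for Rps3, normal replicate 2 was the highest or among the highest of the 14 arrays.

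**Figure D3:**
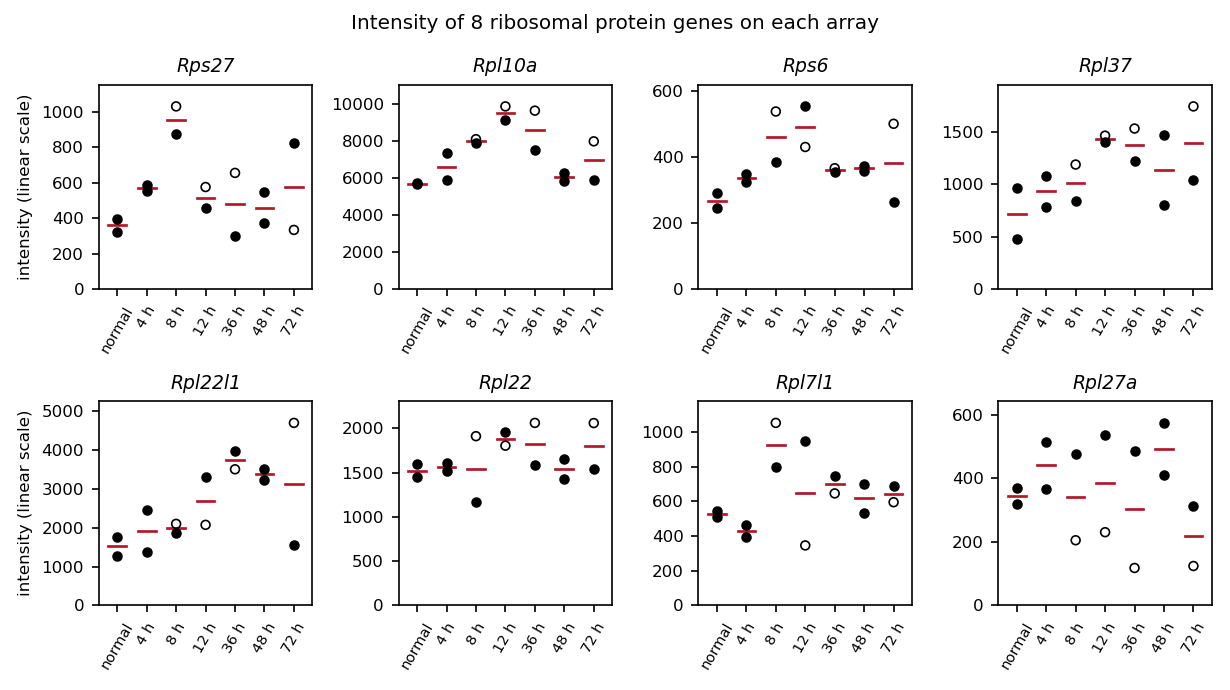
Intensity on a linear scale (vertical axes from 0) of 8 ribosomal protein genes on each array, by group, with normal liver at the left and the 6 times after it. Open circles are the low-ratio arrays (replicate 2 of 8, 12, 36 and 72 h), filled circles the others, and red lines the mean of 2 arrays. Rpl10a is highest at 12 h, Rps27 at 8 h and Rpl22l1 from 36 h on, Rpl22 stays between 1169 and 2062, and the open circles of Rpl27a lie lowest.

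The array held several duplicated ribosomal protein genes, and the proteins of some can replace those of their parent genes. Whether each copy named here does so was not examined. Rpl22l1 and its parent Rpl22, whose protein represses Rpl22l1 messages in mouse cells, form one such pair. Rpl22l1 had 1775 and 1270 in normal liver, 2462 and 1382 at 4 h, 1868 and 2102 at 8 h, 3301 and 2076 at 12 h, 3992 and 3508 at 36 h, 3236 and 3524 at 48 h, and 1549 and 4703 at 72 h. From 8 to 48 h all of its arrays were above both normal arrays, and the arrays of 72 h were 3-fold apart. The difference was 1.28 at 36 h (SE 0.44, adjusted p = 0.136), or 2.44-fold, and 1.14 at 48 h (SE 0.44, adjusted p = 0.262), the highest of the family at both times. Late minus early it was 0.60 (SE 0.25, adjusted p = 0.140), also the highest. Rpl22 had 1590 and 2062 at 36 h against 1449 and 1599 in normal liver (0.24, SE 0.26, adjusted p = 0.708). Its second tested probe set was at -0.75 at 36 h (SE 0.28, adjusted p = 0.174), so the 2 probe sets disagreed in sign. Whether the courses of the pair differ was not tested.

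Rpl7l1, named for its likeness to Rpl7, is in the family by the naming rule alone, and whether its protein is part of the ribosome was not examined. It had 799 and 1052 at 8 h against 542 and 509 in normal liver (0.74, SE 0.35, adjusted p = 0.209). At 4 h it had 393 and 465, both below normal liver. Its second, dimmer probe set was at 0.83 at 8 h (SE 0.23, adjusted p = 0.0423). Of the 83 tested probe sets that fit the naming rule, it was the only 1 to pass in any of the 7 comparisons. Rpl7 itself had 7579 and 6029 at 8 h against 6047 and 6861 in normal liver (0.07) on its brightest probe set. The 2 other tested probe sets of Rpl7 were at 0.45 (SE 0.28) and 0.79 (SE 0.38). Rps27l, a copy of Rps27 that p53 induces, had 7780 and 10424 at 72 h against 7055 and 5569 in normal liver (0.52). Rps4l, a copy of Rps4x, had discordant pairs of arrays, such as 1527 and 370 at 12 h, and 294 and 501 at 72 h against 573 and 765 in normal liver (-0.70, SE 0.52, adjusted p = 0.551).

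Rpl27a was the gene whose values went with the quality of the arrays. It had 205, 230, 118 and 124 on the 4 low-ratio arrays and between 313 and 574 on the other 10. With the low-ratio arrays as a term in the fit, Rpl27a was lower on them by 1.19 on the log2 scale (adjusted p = 0.0181), the only 1 of 44 genes to pass, where 0.869% of all probe sets did. Its differences from normal liver, -0.38 at 36 h and -0.63 at 72 h, each contain 1 such array, and at 36 h the difference was 0.44 without them. For the other genes at 8, 12, 36 and 72 h no such dependence passed the test.

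Below the filter lay 4 genes. Rpl12, at the base of the stalk, had 23.9 and 50.9 in normal liver, where 1 of 2 arrays was above background, 15.5 and 51.8 at 4 h, 177 and 125 at 8 h, 235 and 330 at 12 h, 65.1 and 112 at 36 h, 201 and 86.6 at 48 h, and 117 and 130 at 72 h. Its mean over all arrays fell short of the filter. In the fit without the filter it passed the test at 12 h (adjusted p = 0.00901) and the F test (adjusted p = 0.0284), and it is named here because of these values. No size is given, since the mean of the normal arrays was below the background of both. Rpl3l, the copy of Rpl3 used in skeletal and heart muscle, was above background on both arrays of 4 h, with 148 and 134, and on neither normal array. Taken without the pseudocount, its 4 h intensities were 2.50-fold the background of the normal arrays. The difference from normal liver did not pass in the limma fit without the filter (adjusted p = 0.301), beside the muscle markers given above for the same arrays. Their part in this value was not tested. Rpl39l, the copy of Rpl39 known from testis, was above background on 1 of the 14 arrays, and Rpl14 lay between 38.1 and 135.

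The 7 genes with a mean under 1000, Rpl27a, Rpl39, Rpl7l1, Rps25, Rps27, Rps4l and Rps6, had medians of 0.28, 0.66, 0.46, 0.28, 0.29 and 0.26 at the 6 times. The medians of the 37 brighter genes were 0.10, 0.13, 0.28, 0.24, -0.0069 and 0.14. All 3 genes with an unadjusted p under 0.05 at 8 h were among the 7, and all 5 at 36 h among the 37. The brightest probe set of a gene was used, but 23 of the 48 genes had several, and 19 had several that were tested. Of these 19, all probe sets lay above normal liver in 11, 11, 15, 16, 8 and 10 genes at the 6 times, and in 7, 7, 4, 3, 10 and 9 genes they differed in sign. Ribosomal protein genes have many processed pseudogenes of like sequence. Of the 48 probe sets, 15 carry the suffix that marks probes shared with other transcripts, so their signal may include such copies.

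Ribosome biogenesis factors, the nucleolar proteins that process ribosomal RNA and assemble the subunits, moved on the same arrays. Of 36 tested, 0, 14, 19, 2, 1 and 0 rose at 4, 8, 12, 36, 48 and 72 h, and 0 fell at any of these times. Of all probe sets 4.87, 5.98, 2.28 and 1.64% rose at 8, 12, 36 and 48 h. Their median differences from normal liver were 0.15, 0.69, 0.93, 0.32, 0.17 and 0.25 at the 6 times. Nop58, a core protein of the particles that methylate ribosomal RNA, had 743 and 820 at 8 h against 159 and 113 in normal liver (2.13, SE 0.30, adjusted p = 0.00119). Its partner Nop56 had 1151 and 671 at 12 h against 121 and 313 in normal liver (1.87, SE 0.32, adjusted p = 0.00347). Late against early, 15 of the 36 factors fell (5.96% of all probe sets) and 0 rose, with a median of -0.36. Over the 6 times, 13 of the 36 passed the F test, against 0 of the 44 ribosomal protein genes. No test was made of the difference between these lists.

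**Figure D4:**
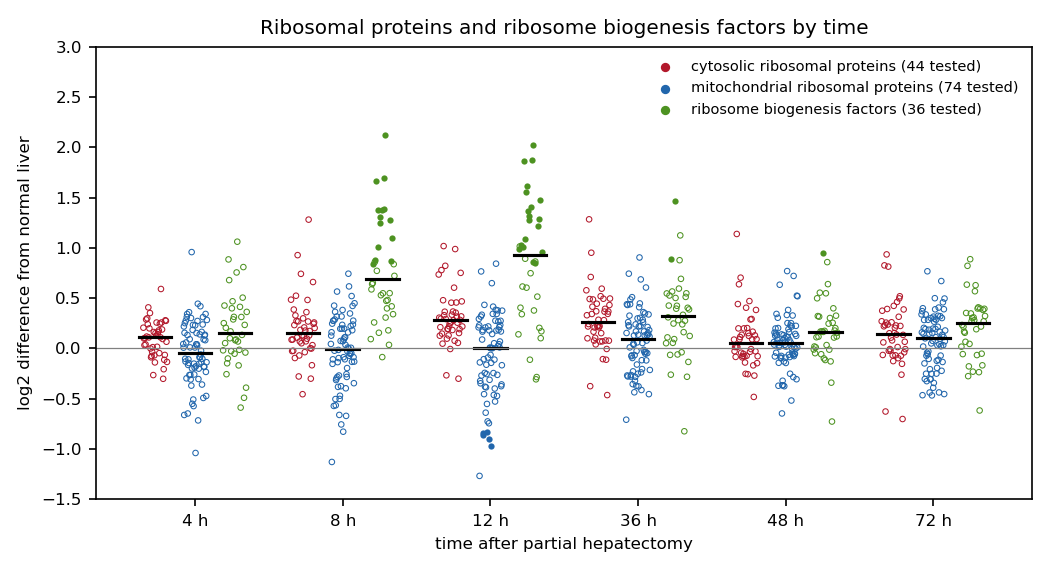
Log2 difference from normal liver at each time for single genes of 3 lists: cytosolic ribosomal proteins (red, 44 tested), mitochondrial ribosomal proteins (blue, 74) and ribosome biogenesis factors (green, 36). Filled points passed the test, open points did not, and black bars are medians. Biogenesis factors spread upward at 8 and 12 h with 14 and 19 filled points, while no red point is filled.

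Mitochondrial ribosomal proteins, which belong to the separate ribosome of that organelle, were centred on normal liver. Of 74 tested, 0 rose and 5 fell at 12 h (6.22% of all probe sets), with Mrpl49 at 357 and 240 against 579 and 681 in normal liver (-0.97, SE 0.27, adjusted p = 0.0396). None passed at the other times, and the medians were -0.042, -0.0074, 0.0039, 0.098, 0.056 and 0.11. Late against early, 3 rose (9.92% of all probe sets) and 1 fell. Mrps6 was among the 3 that rose (0.79, SE 0.15, adjusted p = 0.00400).

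Of 15 tested genes whose messages also start with a TOP element but fall outside the naming rule, such as elongation factors, 1 rose at 12 h and 1 at 36 h (5.98% and 2.28% of all probe sets). The first was Npm1, a nucleolar chaperone that is also on the biogenesis list, with 2797 and 1975 at 12 h against 1387 and 1161 in normal liver (0.86, SE 0.23, adjusted p = 0.0278). The second was Nap1l1, a histone chaperone, with 1585 and 1872 at 36 h against 917 and 809 in normal liver (0.95, SE 0.21, adjusted p = 0.0276). The medians of the 15 were -0.0081, 0.00054, 0.22, 0.098, -0.068 and 0.029 at the 6 times.

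Of 15 tested genes of mTORC1 signalling and of the control of TOP messages, 1 rose at 8 h, 2 rose at 12 h and 1 fell at 48 h, where 4.87% and 5.98% of all probe sets rose and 0.685% fell. Sesn2, a leucine sensor that restrains mTORC1, had 395 and 305 at 12 h against 183 and 71.6 in normal liver (1.20, SE 0.29, adjusted p = 0.0180). Eif4e, the protein that binds the cap of messages, had 1717 and 1812 at 12 h against 1189 and 873 in normal liver (0.76, SE 0.22, adjusted p = 0.0458). Larp1, which holds back TOP messages when mTORC1 is off, was at -0.33 at 12 h (SE 0.26, adjusted p = 0.417). The gene that fell at 48 h was Myc, a transcription factor that drives ribosome production, with 70.4 and 70.8 against 556 and 574 in normal liver (adjusted p = 0.00817). Background on these 48 h arrays was 104 and 66.0, so Myc was below it on the first and near it on the second. No size is given for that reason. Late against early, 1 of the 15 rose and 2 fell.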

How the data were processed

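Biotin-labelled liver RNA was hybridised to 14 one-colour arrays. The authors deposited 1 intensity per probe set on a linear scale. The sources used here do not name the software behind these values. Per the labels' design text, GeneSpring served to select genes that differed from normal liver. Without the lowest and highest 2 percent, array means were between 500.19 and 500.284. Probe sets were named by the array's annotation, and 20351 symbols had a match, by gene ID, in the GRCm38.p6 gene table.

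The deposited scaling was kept, and log2(intensity + 57) was analysed, 57 being the 25th percentile. Of 22690 probe sets 64 controls were dropped, and the test took those whose mean reached 128.8, the 40th percentile. One model of 7 groups over all arrays was fitted with limma 3.58.1 in R 4.3.3 (7 residual and 5.08 prior degrees of freedom). Benjamini-Hochberg adjustment ran over 13576 probe sets within each comparison. Background was the 95th percentile of 27 bacterial controls per array (43.56 to 138.31). Precision is limited by the number of arrays. The procedure was tested on simulated data. The genes, lists, tests and naming rule were chosen with earlier results of these data known.

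Named genes were the 3 highest and 3 lowest differences in each of 7 comparisons, duplicated genes with their parents, and examples of role. From the other lists, called genes and a few examples are named. Alternatives were quantile normalization, pseudocounts (14.25, 228), no filter or one at the 60th percentile, an intensity trend, array weights, a replicate block, low-ratio arrays as a term or left out, probe sets averaged per gene, only the arrays compared, and each array left out.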

Additional observations from a re-analysis of the deposited data

How the results depend on the processing

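Counts of ribosomal protein genes past the test (limma) were 0 in each comparison, and 27 of 207 counts under the alternatives differed from 0. They were 1 at 8 h (Rps27) and 1 at 12 h (Rpl10a) with a pseudocount of 228, a filter at the 60th percentile or an intensity trend, 1 at 12 h (Rpl10a) and 2 late against early (Rps25 and Rpl41) with quantile normalization, and 1 at 8 h and 3 at 12 h (Rpl10a, Rps9, Rps20) with probe sets averaged per gene. Without the filter, Rpl12 made 1 at 12 h and 1 over the course. With only the arrays of a comparison the count was 1 at 8 h (Rps27) and 1 at 12 h (Rpl12). There, and with 1 array left out, the filter was drawn anew from the arrays kept. Rpl12 entered those tests only because arrays with low values of it were gone, so its calls there add no support. Leaving out 1 array gave 0 to 1 at 8 h, 0 to 3 at 12 h, 0 to 1 late against early, 0 to 1 over the course and 0 to 0 at 4, 36, 48 and 72 h; the 3 at 12 h, Rps25, Rpl12 and Rpl37, came without normal replicate 1. The single calls were of Rps27 at 8 h without either array of 36 or of 72 h, of Rpl12 at 12 h without replicate 1 of 4 h, of Rps25 at 12 h without either array of 36 h, of Rps25 late against early without replicate 2 of 36 h and of Rpl22l1 without replicate 1 of 72 h. Over the course they were of Rpl12 without normal replicate 1 or replicate 1 of 4 h and of Rpl7l1 without replicate 1 of 12 h. The median moved to 0.44 at 36 h, 0.19 at 48 h and 0.15 late against early with quantile normalization, and to 0.017 at 72 h without the low-ratio arrays. With 1 array left out it ran from -0.027 to 0.13 at 4 h, 0.069 to 0.21 at 8 h, 0.19 to 0.38 at 12 h, 0.19 to 0.33 at 36 h, -0.096 to 0.22 at 48 h, 0.017 to 0.22 at 72 h and -0.064 to 0.028 late against early. The causes were not tested.

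Of 59 values of single genes, 13 turned sign in at least 1 alternative. With quantile normalization Rplp2 was at 0.044 at 12 h and Rps3 at 0.072 at 36 h. Rpl27a at 36 h was at 0.22 with the low-ratio arrays as a term and 0.44 without them; without them Rpl41 and Rplp2 were at 0.19 and 0.15 at 12 h and Rps6 at -0.0088 at 72 h. With probe sets averaged per gene Rpl41 was at 0.17 at 8 h and 0.29 at 12 h. With 1 array left out, ranges that crossed 0 were, at 4 h, -0.058 to 0.87 for Rpl37, -0.71 to 0.11 for Rps3, -0.43 to 0.015 for Rps3a1 and -0.12 to 0.69 for Rpl22l1. At 8 h they were -0.71 to 0.11 for Rps3 and -0.68 to 0.12 for Rpl41, and at 12 h -0.71 to 0.11 for Rps3, -0.72 to 0.19 for Rpl41 and -0.36 to 0.34 for Rplp2. At 36 h they were -1.19 to 0.44 for Rpl27a and -0.52 to 0.30 for Rps3, and at 72 h -0.67 to 0.15 for Rps3 and -0.0088 to 0.78 for Rps6. The highest values of Rps3 and Rps3a1 came without normal replicate 2.

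Replicate numbers were not used to pair the samples in the main fit. Deviations of same-numbered arrays correlated between -0.185 and 0.527 over 21 pairs of groups, 9 of them over 0.1. The highest value was that of normal liver with 48 h. Pairs among 8, 12, 36 and 72 h, where replicate 2 is a low-ratio array, all lay between 0.144 and 0.307. The cause of these correlations was not tested. With the replicate number as a block the count stayed at 0 in each comparison. The medians at the 6 times, 0.11, 0.15, 0.28, 0.26, 0.052 and 0.14, could not move, because each group holds 1 array of each number.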
